A study of Mus musculus with 26 samples.

Results

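Mas-related G protein-coupled receptors are a family of receptors, many of them made by subsets of small sensory neurons, and 7 of its genes, *Mrgprd*, *Mrgpra3*, *Mrgprx1*, *Mrgprb4*, *Mrgprb5*, *Mrgpre* and *Mrgprf*, are described here among the 55401 genes counted in dorsal root ganglia, where the cell bodies of sensory neurons lie next to the spinal cord. They were chosen by name, and all 7 were counted in all 26 libraries and passed the filter on low counts in every fit. In textbook terms, those made by sensory neurons sit on nerve endings in the skin and couple to Gq or Gi proteins, and ligand binding opens channels such as Trpa1 and Trpv1 and makes the fibre fire. *Mrgpra3* and *Mrgprx1* mark neurons that start itch, *Mrgprd* marks the large class of nonpeptidergic nociceptors, and *Mrgprb4* marks unmyelinated fibres tuned to gentle stroking. *Mrgpre* and *Mrgprf* are orphan receptors, with no settled ligand.

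The study asked how loss of the aryl hydrocarbon receptor gene *Ahr* from neurons bears on the response of these ganglia to nerve injury. Mice labelled cKO carried *Ahr* f/f with the transgene Thy1-CRE(ERT2/EYFP), in which *Thy1* sequence drives a tamoxifen-dependent Cre in neurons, and controls carried *Ahr* fl/+ (or f/+) or *Ahr* fl/fl without it. For the naive and injured mice of both genotypes the design gives tamoxifen at 100 mg/kg once daily for 5 days at 28 weeks of age, so the controls received it too, and ganglia L4 to L6 were taken 5 weeks later, either without surgery (3 control and 3 cKO mice) or 1 day after sciatic nerve crush (3 and 3). A supplemental table holds ganglia of both sides 1 day after sham surgery (2 control and 2 cKO mice, each giving an ipsilateral and a contralateral library) and semi-purified neurons 24 h after seeding (3 control libraries, all *Ahr* fl/fl, and 3 cKO libraries). Tissue was dissociated between ZT2 and ZT4 (hours after lights on), each naive or injured library is 1 mouse, and the side of the crush ganglia is not given in the sources used here.

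Each library of naive or injured ganglia held between 20169388 and 23540375 counts, each of sham ganglia between 39306414 and 58751270, and each of neurons between 25299938 (control replicate 1) and 88180611. In no group did *Ahr* counts of all cKO libraries lie below those of all controls: in CPM (counts scaled by the library total, adjusted by edgeR's TMM factors) *Ahr* was 18.9, 23.8 and 23.8 in naive controls and 24.2, 28.1 and 22.7 in naive cKO. In injured mice it was 38.2, 38.7 and 36.2 in controls and 39.7, 40.5 and 38.8 in cKO, every cKO library above every control. In the neurons it was 53.2, 51.6 and 44.0 in controls and 43.9, 56.0 and 45.9 in cKO. A count over the whole gene does not show loss of part of it, so cKO is used below as the label. *Thy1*, whose sequence the transgene carries, was higher in every cKO library than in any control of the same group, for example 1382, 1252 and 1416 against 707, 807 and 712 CPM in naive mice. By *Xist* and Y-linked transcripts, 2 injured libraries did not match their labelled sex: control replicate 3, labelled male, was female, and cKO replicate 2, labelled female, was male. By transcripts the only male libraries among the naive and injured ganglia were therefore injured cKO replicates 2 and 3, while all sham libraries were male and all neuron libraries female.

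All 7 genes are protein-coding genes of chromosome 7 (GRCm38, GENCODE M21). *Mrgpra3* (ENSMUSG00000078698.3, chr7:47588950-47601372, minus strand), *Mrgprx1* (ENSMUSG00000070552.2, chr7:48020971-48027597, minus), *Mrgprb5* (ENSMUSG00000070551.3, chr7:48167983-48169019, minus) and *Mrgprb4* (ENSMUSG00000070550.2, chr7:48198070-48199288, minus) lie in 1 cluster with most of the family. *Mrgpre* (ENSMUSG00000048965.9, chr7:143778363-143784500, minus), *Mrgprf* (ENSMUSG00000031070.15, chr7:145300828-145309557, plus) and *Mrgprd* (ENSMUSG00000051207.7, chr7:145314835-145324086, plus) lie at the far end of the chromosome. *Mrgprb4* and *Mrgprb5* have a single exon each, *Mrgprf* has 4 exon blocks, and the other 4 genes have 2. *Mrgprb4* and *Mrgprb5* are the most alike pair, with 84.3% identical bases over their coding sequences, while the other 20 pairs share 50.8% to 64.6%, including 63.3% for *Mrgpra3* and *Mrgprx1*.

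The first 150 bases of the coding sequences of *Mrgprb4* and *Mrgprb5* are shown because this pair parts after nerve crush, as described below. Both start at the ATG and run 5′ to 3′, and capitals mark bases that have no identical partner in the alignment of the pair.
Mrgprb4: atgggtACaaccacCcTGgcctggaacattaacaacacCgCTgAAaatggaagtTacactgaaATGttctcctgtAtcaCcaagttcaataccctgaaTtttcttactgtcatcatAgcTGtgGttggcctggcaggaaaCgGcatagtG
Mrgprb5: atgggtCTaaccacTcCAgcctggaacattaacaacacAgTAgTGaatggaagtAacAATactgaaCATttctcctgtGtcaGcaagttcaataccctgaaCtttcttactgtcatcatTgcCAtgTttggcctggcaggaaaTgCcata
*Mrgprb4* has 24 such bases in this stretch and *Mrgprb5* has 26. Even so, only 0.81% of the 50-base words of *Mrgprb5* and 1.45% of those of *Mrgprb4* occur in another transcript, so few reads of that length fit both genes. The share was 0 for *Mrgprd* and *Mrgprf* and 1.35% for *Mrgpre*. It was highest for *Mrgprx1* (5.84%, mostly shared with *Gm18348*) and *Mrgpra3* (7.14%, mostly with *Mrgpra4*). The only counted gene that overlaps a member is the miRNA gene *Gm22064*, on the opposite strand inside *Mrgpre*, with 1.09% of the *Mrgpre* counts.

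The sequences before the pair are alike as well. Over 250 aligned bases before the starts RefSeq gives (GRCm38.p6), *Mrgprb4* and *Mrgprb5* were identical at 82.4%, and the 140 of these bases that lie before the *Mrgprb4* gene model are shown 5′ to 3′ on the minus strand, with the 30 bases that differ in capitals. They are chr7:48199289-48199428 for *Mrgprb4* and chr7:48169096-48169235 for *Mrgprb5*.
Mrgprb4: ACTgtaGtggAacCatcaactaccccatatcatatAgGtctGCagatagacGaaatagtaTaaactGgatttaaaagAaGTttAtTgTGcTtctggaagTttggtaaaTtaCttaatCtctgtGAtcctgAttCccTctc
Mrgprb5: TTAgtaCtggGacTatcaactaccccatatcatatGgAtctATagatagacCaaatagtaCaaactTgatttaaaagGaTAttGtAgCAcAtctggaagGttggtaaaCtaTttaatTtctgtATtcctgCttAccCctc

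RefSeq promoter entries of GRCm38.p6 matched 5 of the 7 genes, *Mrgprd*, *Mrgprx1*, *Mrgprb4*, *Mrgprb5* and *Mrgpre*, and their 250 bases before the start were searched on both strands for 3 words. These were the core word bound by the Ahr protein, GCGTG, the word of RUNX factors, which is TGTGGT, and the word of AP-1 factors, which is TGACTCA, each with its reverse complement, and none of them contains another. Of all 27025 promoter windows of this length, 28.2% hold the first, 14.2% the second and 4.43% the third. Among the 5 genes the first was found in *Mrgpre* alone, 2 times, and the other words in none, which describes these letters in these windows and nothing more. The *Mrgpre* window, chr7:143784501-143784750 on the minus strand, is shown because *Ahr* is the gene targeted in this study, with both words in capitals.
Mrgpre: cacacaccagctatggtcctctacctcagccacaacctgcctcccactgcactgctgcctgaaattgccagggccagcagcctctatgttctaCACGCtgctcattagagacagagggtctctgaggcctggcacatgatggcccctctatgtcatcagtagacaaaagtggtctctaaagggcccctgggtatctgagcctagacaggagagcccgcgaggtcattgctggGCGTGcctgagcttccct
The words begin 157 and 18 bases before the start.

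*Mrgprd* was the most abundant of the 7 genes in naive ganglia by either length scale. The deposited FPKM divides each count by the whole span of the gene, introns included, so a scale per kilobase of exon (CPM per exon kb) is given beside it. Whether the counts hold reads from introns was not tested, and any such reads would raise the values per exon kb. In naive controls *Mrgprd* stood at 28.5 FPKM ± 0.300 (SD, n = 3) and at 81.5 CPM per exon kb ± 3.05. Per exon kb, *Mrgprx1* (24.9 ± 1.84), *Mrgpra3* (21.2 ± 1.51), *Mrgprb4* (12.9 ± 1.94), *Mrgpre* (11.7 ± 0.936), *Mrgprb5* (6.09 ± 0.510) and *Mrgprf* (3.71 ± 0.908) followed in that order. Neighbours in this order did not overlap between libraries, except *Mrgprb4* (10.7 to 14.2) and *Mrgpre* (10.9 to 12.7). On the FPKM scale the order after *Mrgprd* was *Mrgprb4* (13.4), *Mrgpre* (7.40), *Mrgprb5* (6.29), *Mrgprx1* (4.57), *Mrgpra3* (2.28) and *Mrgprf* (0.975). *Mrgpra3* and *Mrgprx1* thus stood above *Mrgprb4*, *Mrgpre* and *Mrgprb5* per exon and below them per span, and their spans are 9.59 and 5.62 times their exon lengths.

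**Figure D1:**
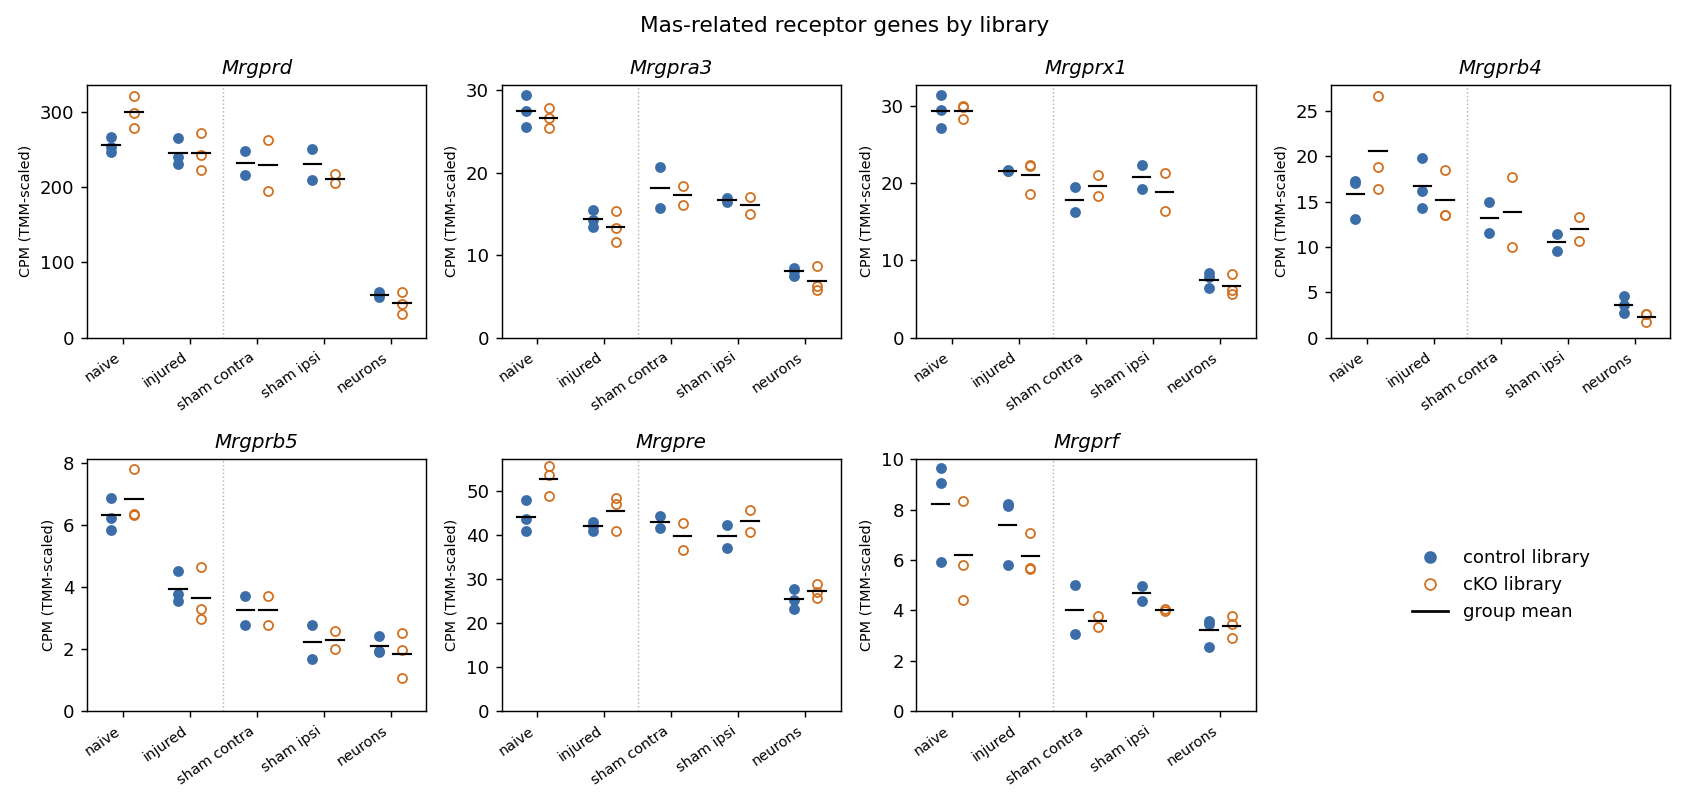
CPM (linear axis from 0, scaled by TMM factors within each of the 2 tables) of the 7 receptor genes in every library, with filled points for control libraries, open points for cKO libraries and bars for group means. Left of the dotted line are naive and injured ganglia (3 libraries a group), right of it the separately normalized sham ganglia (2 a group) and cultured neurons (3 a group); *Mrgpra3* lies at 25.4 to 29.4 CPM in naive and 11.6 to 15.5 in injured libraries, and *Mrgprd* at 31.4 to 60.8 in neurons.

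One day after sciatic crush, *Mrgpra3* and *Mrgprx1*, which mark itch neurons, were lower. *Mrgpra3*, the receptor for chloroquine, was at 27.4, 29.4 and 25.5 CPM in naive controls and at 13.4, 15.5 and 14.2 CPM in injured controls. In cKO mice it was at 27.8, 25.4 and 26.6 CPM before and 15.3, 11.6 and 13.3 CPM after crush. Every injured library lay below every naive library in both genotypes. The log2 fold change was -0.94 (SE 0.0975, adjusted p = 4.74e-05, edgeR) in controls and -0.99 (SE 0.0981, adjusted p = 4.26e-05) in cKO, and averaged over the genotypes *Mrgpra3* fell by 48.6% (log2 -0.96, SE 0.0691, adjusted p = 1.04e-06). All p-values of this kind are from edgeR's quasi-likelihood test, two-sided, with Benjamini-Hochberg adjustment over the 21261 genes tested, and called below an adjusted p of 0.05. In bulk ganglia, fewer neurons of a type and less RNA per neuron cannot be told apart.

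*Mrgprx1*, a receptor for itch-evoking peptides that is made by many of the same neurons, fell less. It was at 27.1, 31.5 and 29.5 CPM in naive controls and 21.6, 21.6 and 21.7 CPM in injured controls. The cKO libraries gave 29.9, 28.4 and 30.1 CPM before and 22.3, 18.7 and 22.3 CPM after crush, again without overlap. The log2 fold change was -0.44 (SE 0.0761, adjusted p = 0.00153, edgeR) in controls, -0.48 (SE 0.0763, adjusted p = 0.00102) in cKO and -0.46 (SE 0.0539, adjusted p = 4.46e-05) averaged, so *Mrgprx1* fell by 27.3%. With sex by transcripts as a covariate the cKO change of *Mrgprx1* was -0.40 with an adjusted p of 0.0508.

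*Mrgprb5*, a less studied receptor beside *Mrgprb4* in the cluster, also fell. In naive controls it was at 6.88, 6.23 and 5.83 CPM and in injured controls at 3.77, 4.53 and 3.54 CPM. The values in cKO were 7.80, 6.37 and 6.32 CPM before and 3.30, 2.98 and 4.66 CPM after crush. No injured library reached the lowest naive one. The log2 fold change was -0.67 (SE 0.163, adjusted p = 0.0114, edgeR) in controls, -0.90 (SE 0.164, adjusted p = 0.00244) in cKO and -0.79 (SE 0.116, adjusted p = 0.000248) averaged, from 58 to 168 counts per library.

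Its neighbour *Mrgprb4* showed no such separation. It was at 17.3, 17.0 and 13.1 CPM in naive and 14.3, 19.7 and 16.1 CPM in injured controls. In cKO it was at 26.6, 16.4 and 18.8 CPM before and 13.5, 13.5 and 18.5 CPM after crush. Naive and injured libraries overlapped in both genotypes. Its log2 fold change was 0.09 (SE 0.194, adjusted p = 0.801, edgeR) in controls and -0.44 (SE 0.193, adjusted p = 0.147) in cKO, where it ran from -0.61 without injured cKO replicate 3 to -0.22 without naive cKO replicate 1 and was not called in either case. With this spread, the lack of a call does not show that *Mrgprb4* stayed the same.

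*Mrgprd*, the receptor for beta-alanine, changed less than *Mrgpra3* and *Mrgprx1*. It was at 248, 267 and 254 CPM in naive and 231, 266 and 241 CPM in injured controls, which overlap. In cKO mice it was at 322, 279.6 and 299.7 CPM before and 244, 223 and 273 CPM after crush, which do not. The log2 fold change was -0.06 (SE 0.0806, adjusted p = 0.665, edgeR) in controls, -0.29 (SE 0.0806, adjusted p = 0.0278) in cKO and -0.17 (SE 0.0570, adjusted p = 0.0350) averaged. The cKO and averaged calls for *Mrgprd* are not firm: they were lost with sex as a covariate (adjusted p = 0.177 and 0.10), and the averaged call was also lost with the replicate number as a block (adjusted p = 0.0553). With sex as a covariate the log2 fold changes were -0.30 (SE 0.120) in cKO and -0.18 (SE 0.0730) averaged, no smaller than in the main fit. The averaged call was lost without any 1 of 8 libraries (naive control replicates 2 and 3, naive cKO replicates 1 and 3, injured control replicates 1 and 3, injured cKO replicates 1 and 2), with adjusted p from 0.0510 to 0.0733, and the cKO call without naive cKO replicate 1 or 3 or injured cKO replicate 1 or 2 (0.0581 to 0.0997).

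Of the orphan receptors, *Mrgpre* was at 40.9, 47.8 and 43.5 CPM in naive controls and 42.9, 42.1 and 40.8 CPM in injured controls. In cKO it was at 55.6, 48.7 and 53.6 CPM before and 48.3, 40.7 and 46.9 CPM after crush. The cKO groups did not overlap, but the log2 fold change of -0.21 (SE 0.0775, adjusted p = 0.0768, edgeR) did not pass, nor did the averaged one of -0.14 (SE 0.0550, adjusted p = 0.0636). With limma on log2(FPKM + 0.1) both passed, at adjusted p of 0.0424 and 0.0172, and the averaged value passed in edgeR without naive control replicate 1 (0.0362), naive cKO replicate 2 (0.0308) or injured cKO replicate 1 (0.0354). The cKO value passed without naive cKO replicate 2 (0.0413) or injured cKO replicate 1 (0.0486). Other settings gave weaker values: across the alternatives the cKO value ran from -0.25 to -0.12 and the averaged one from -0.19 to -0.098. Without 1 library at a time the adjusted p in edgeR reached 0.240 in cKO and 0.123 averaged. *Mrgprf* was the most variable, at 9.66, 5.92 and 9.05 CPM in naive and 8.21, 5.79 and 8.13 CPM in injured controls. Its averaged log2 fold change was -0.08 (SE 0.168, adjusted p = 0.750, edgeR).

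Counted together, 3 of the 7 genes fell after crush in controls (*Mrgpra3*, *Mrgprx1* and *Mrgprb5*), where 21.6% of all genes tested were called and 8.73% were called lower. In cKO 4 fell (*Mrgprd* in addition), against 18.6% of all genes called and 7.89% called lower. Averaged over genotypes the same 4 fell and none rose, where 34.1% of all genes were called and 15.7% called lower. The median log2 fold change of the 7 was -0.18, beside -0.02 over all genes tested. The naive and injured groups did not overlap for 3 of the 7 genes in controls (38.1% of all genes), for 5 in cKO (36.1%) and, pooling both genotypes, for 3 (19.3%). With sex as a covariate 2 of the 7 genes, in place of 4, were called in cKO, *Mrgpra3* and *Mrgprb5*, while calls over all 21261 genes went from 3962 to 1414.

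**Figure D2:**
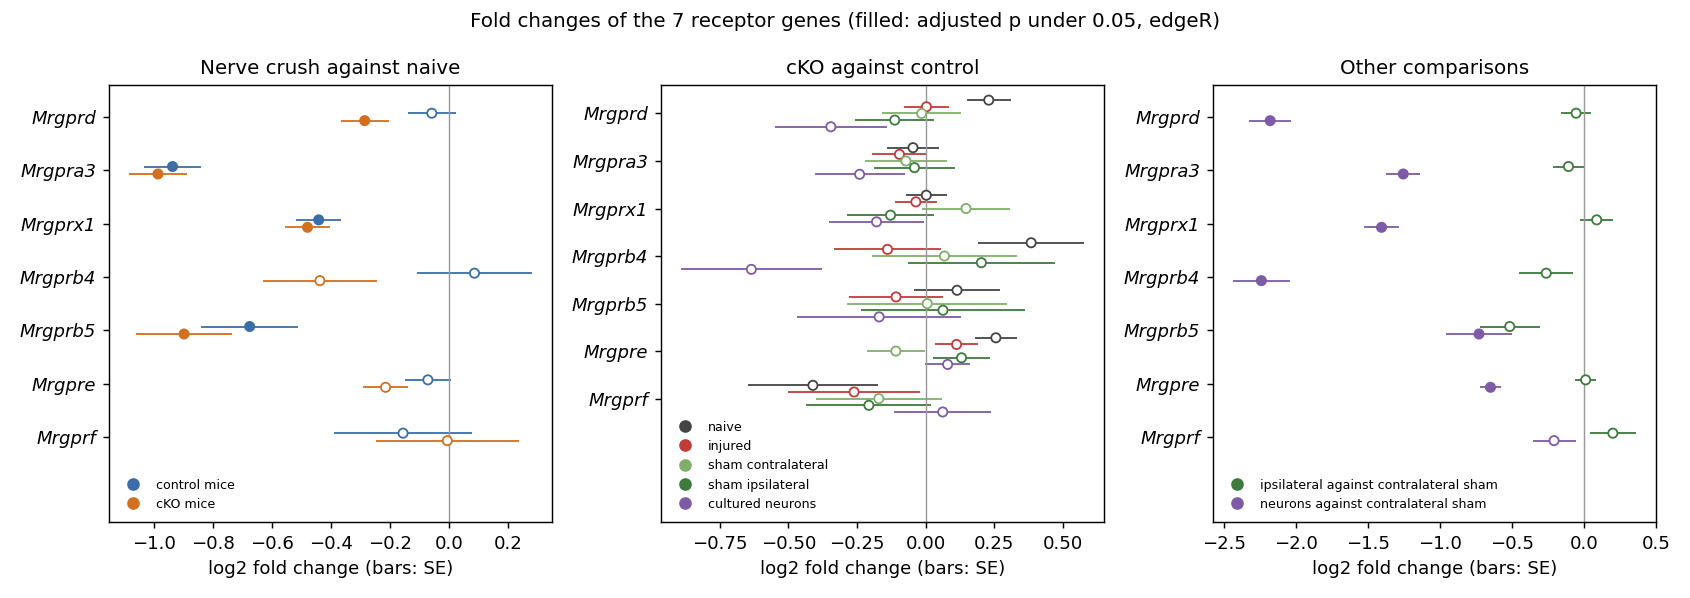
Log2 fold changes (horizontal axes, bars are standard errors) of the 7 receptor genes in edgeR, with filled points for an adjusted p under 0.05. Left, crush against naive in control and cKO mice (3 against 3 libraries each), where *Mrgpra3* lies at -0.94 and -0.99; middle, cKO against control in naive, injured and sham ganglia and in neurons, where no point is filled; right, sham sides and cultured neurons against contralateral sham ganglia, where 6 of 7 neuron points are filled.

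Ratios between 2 receptors of the same library are given for 3 pairs. These pairs were chosen, out of all pairs of the 7 genes, after the values were seen, so their ratios are a description. An exact permutation test was run on them, but its p is not used, since the pairs were chosen on the same values. The ratio of *Mrgpra3* to *Mrgprx1* in CPM was 1.01, 0.935 and 0.864 in naive controls, 0.932, 0.895 and 0.884 in naive cKO, 0.619, 0.715 and 0.654 in injured controls and 0.689, 0.620 and 0.597 in injured cKO. All 6 injured libraries lay below all 6 naive ones. The ratio of *Mrgprb5* to *Mrgprb4* was 0.293 to 0.446 in the 6 naive libraries and 0.220 to 0.263 in the 6 injured ones, although the coding sequences of these genes are the most alike of all pairs. The ratio of *Mrgpra3* to *Mrgprd* was 0.0864 to 0.111 in naive and 0.0489 to 0.0629 in injured libraries. The mean log2 ratios differed by -0.50, -0.63 and -0.79 between injured and naive libraries.

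**Figure D3:**
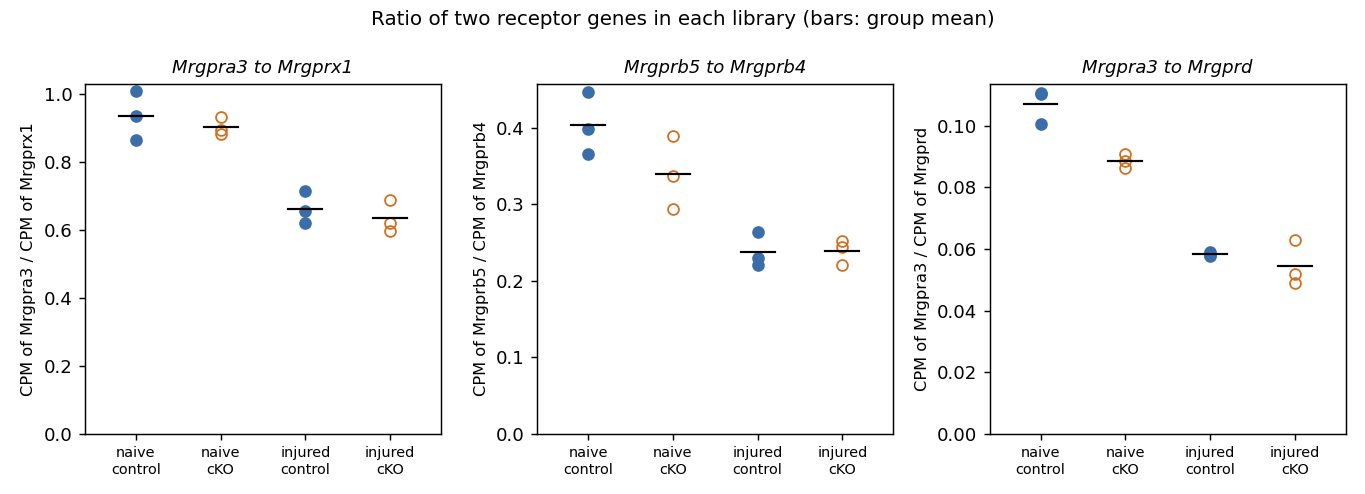
Ratio of CPM between pairs of receptor genes in each naive and injured library (linear axes from 0), with filled points for control, open points for cKO and bars for group means of 3 libraries. The ratio of *Mrgpra3* to *Mrgprx1* lies at 0.864 to 1.01 in naive and 0.597 to 0.715 in injured libraries, and neither of the other ratios overlaps between naive and injured libraries.

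Markers of the neuron types around these receptors moved in both directions after crush. Of 10 markers of the *Mrgprd* nociceptors, 7 fell and 2 rose averaged over genotypes (median log2 -0.34, all genes -0.02, with 18.4% of all genes called higher and 15.7% lower). In controls 4 fell and 3 rose (median -0.15), and in cKO 7 fell and 1 rose (median -0.48), while the interaction called none of the 10. The summed level of these markers was 1968 to 2093 CPM in naive and 2182 to 2337 CPM in injured controls, higher after crush without overlap. In cKO it was 2081 to 2451 CPM in naive and 2072 to 2222 CPM in injured libraries, which overlapped. *Agtr1a*, an angiotensin receptor (-0.77, SE 0.0674, adjusted p = 4.67e-06, edgeR), *Lpar3* (-0.47, SE 0.0664, adjusted p = 0.000193), a receptor for lysophosphatidic acid, and *Ptgdr* (-0.49, SE 0.0745, adjusted p = 0.000323), a prostaglandin receptor, fell. *Ret* (0.43, SE 0.0542, adjusted p = 7.10e-05), the tyrosine kinase through which GDNF-family ligands signal, and *P2rx3* (0.25, SE 0.0478, adjusted p = 0.00142), an ATP-gated channel, rose. Of 7 markers of the other itch class, the neurons that use the natriuretic peptide Nppb, 6 rose and 1 fell (median 0.47), and their summed level was 187 to 237 CPM in naive and 262 to 323 CPM in injured libraries. *Osmr*, the oncostatin M receptor (0.53, SE 0.0487, adjusted p = 6.88e-06), *Nts*, the peptide neurotensin (1.04, SE 0.123, adjusted p = 4.80e-05), and *Il31ra*, the receptor for the itch cytokine IL-31 (0.44, SE 0.0662, adjusted p = 0.000296), rose, and *Sst*, somatostatin, fell (-0.79, SE 0.131, adjusted p = 0.000600). These lists were drawn up with earlier results of the data known.

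Averaged over genotypes after crush, 18.4% of all genes were called higher and 15.7% lower, and the counts of the lists below stand beside these shares. Of the remaining neuron types, C low-threshold mechanoreceptors had 1 of 5 markers higher and 1 lower (median -0.15), peptidergic nociceptors 1 of 5 higher and 1 lower (median 0.09) and large myelinated neurons 1 of 6 higher and 2 lower (median -0.17). The summed level of the peptidergic markers was 1088 to 1179 CPM in naive and 1514 to 1755 CPM in injured libraries, higher without overlap, and the 1 gene called higher was *Adcyap1*, which encodes the neuropeptide PACAP (2.17, SE 0.0807, adjusted p = 8.69e-09, edgeR). The sums for both other types overlapped, at 173 to 223 and 182 to 206 CPM for the mechanoreceptors and 2834 to 3688 and 2588 to 3587 CPM for the large neurons. Of 9 genes of all sensory neurons 2 fell and 1 rose, with a median of 0.02, and their summed level was 4391 to 4941 CPM in naive and 4545 to 5184 CPM in injured libraries. Among cells other than neurons, 4 of 6 mast cell markers fell and none rose, and the summed level of that list was 82.6 to 95.2 CPM in naive and 67.7 to 78.8 CPM in injured libraries. *Kit* is on both the mast cell and the peptidergic list, so these lists are not independent. For fibroblasts 1 of 6 fell (615 to 1203 CPM summed in naive, 580.5 to 944 in injured), and for smooth muscle and pericytes 1 of 6 fell and 1 rose (314 to 401 CPM in naive, 394 to 441 in injured). Satellite glia had 1 of 4 lower and 1 higher, and none of 3 Schwann cell or 5 macrophage markers was called. Their part in the results for the receptors was not tested. The injured groups also differ from the naive ones by surgery.

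Of 15 measured genes of signalling from these receptors and of itch and pain transduction, 4 rose and 3 fell after crush averaged over genotypes (median log2 -0.02), where 18.4% of all genes were called higher and 15.7% lower. *Plcb3*, a phospholipase C that Gq proteins activate, fell (-0.47, SE 0.0552, adjusted p = 4.29e-05, edgeR), as did *Gnai1*, a Gi subunit (-0.30, SE 0.0578, adjusted p = 0.00181). *Trpa1* (0.30, SE 0.0554, adjusted p = 0.00126) and *Trpv1* (0.26, SE 0.0518, adjusted p = 0.00185), the channels that chloroquine and histamine itch use, rose, as did the potassium channel gene *Kcnq3* (0.31, SE 0.0883, adjusted p = 0.0177).

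**Figure D4:**
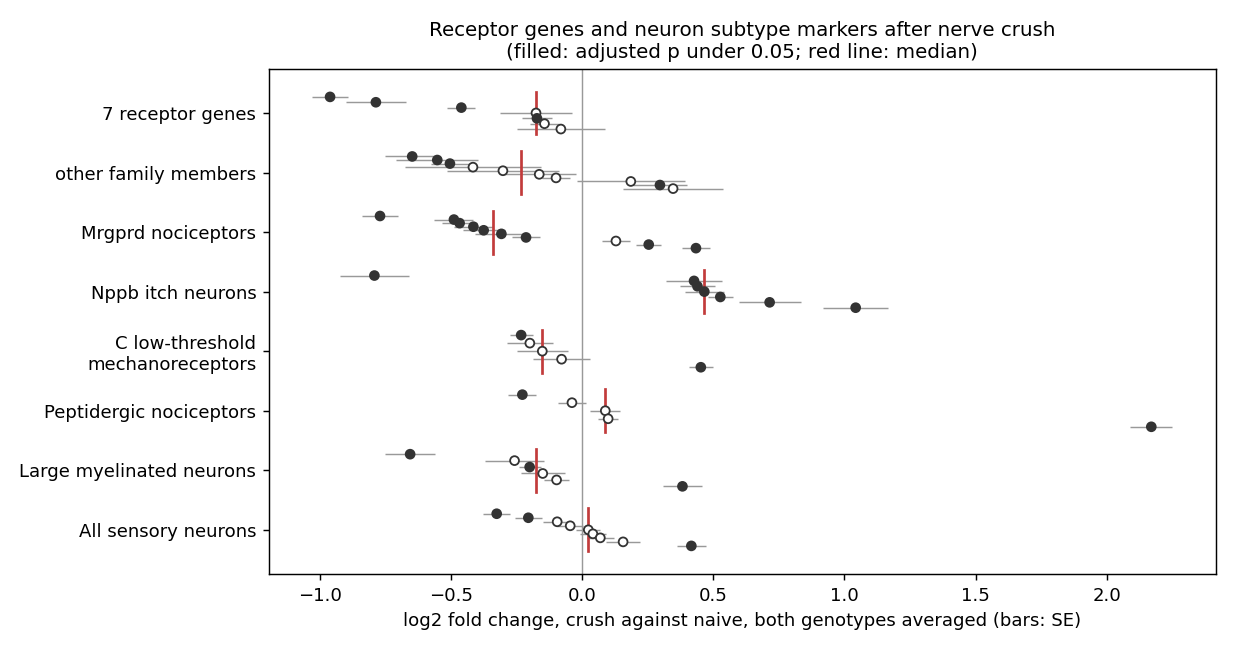
Log2 fold change after crush, averaged over genotypes (horizontal axis, 6 injured against 6 naive libraries, bars are standard errors), of the 7 receptor genes, other family members and markers of sensory neuron types, 1 point a gene, filled for an edgeR adjusted p under 0.05. Red lines are list medians: -0.18 for the 7 genes, -0.34 for markers of *Mrgprd* nociceptors, 0.47 for markers of Nppb itch neurons and 0.02 for all sensory neurons.

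The genotype comparison asked whether the receptors differ between mice labelled cKO and controls, and none of the 7 passed in any of the 5 settings. In naive ganglia, where 0.00941% of all genes were called, *Mrgpre* was at 48.7 to 55.6 CPM in cKO and 40.9 to 47.8 CPM in controls (log2 0.26, SE 0.0774, adjusted p = 0.754, edgeR). *Mrgprd* was at 279.6 to 322 CPM in cKO and 248 to 267 in controls (0.23, SE 0.0805, adjusted p = 0.754). For both genes every cKO library lay above every control, as 11.5% of all genes were separated in one direction or the other. In injured ganglia (0.00941% of genes called) the 7 differences ran from -0.26 for *Mrgprf* to 0.11 for *Mrgpre*, with an adjusted p of 1.00 for each. Whether crush acted differently in cKO was tested directly as an interaction, which called 0 of 7 genes and 0 of all 21261 (627 had an unadjusted p under 0.05). Its largest values were -0.52 (SE 0.274) for *Mrgprb4* and -0.23 (SE 0.114) for *Mrgprd*, and those of *Mrgpra3* and *Mrgprx1* were -0.05 (SE 0.138) and -0.04 (SE 0.108). DESeq2 called none of the 7 either, with 3, 2 and 0 calls over all genes in naive ganglia, injured ganglia and the interaction.

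In cultured neurons 0 of 7 receptor genes and 0 of 23295 genes tested differed between genotypes (1863 had an unadjusted p under 0.05 in edgeR, 5 genes passed with the replicate number as a block, and DESeq2 called 165 genes, none of the 7). *Mrgprb4* was at 2.63, 1.69 and 2.62 CPM in cKO and 4.56, 2.67 and 3.56 CPM in control neurons, a log2 difference of -0.63 (SE 0.256, adjusted p = 0.602). All cKO values lay below all control values, by a narrow margin, as was so in one direction or the other for 14.6% of genes. *Mrgprd* was at 60.8, 31.4 and 44.4 CPM in cKO and 57.6, 60.3 and 53.4 CPM in control neurons (-0.35, SE 0.203, adjusted p = 0.660), and this value ran from -0.61 without cKO replicate 1 to -0.14 without cKO replicate 2, uncalled throughout. In sham ganglia none of the 7 was called on the ipsilateral side (0.00451% of genes called, 1682 with an unadjusted p under 0.05, 152 by DESeq2), with values from -0.21 for *Mrgprf* to 0.20 for *Mrgprb4*. On the contralateral side none was called either (0% of genes, 1160 with an unadjusted p under 0.05, 29 by DESeq2), with values from -0.17 for *Mrgprf* to 0.15 for *Mrgprx1*.

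Sham surgery was compared between the sides of 4 mice, in a fit with 1 mean per group and no term for the mouse, and none of the 7 genes passed (0.00451% of all genes called, 1675 with an unadjusted p under 0.05 in edgeR, 200 called by DESeq2). *Mrgprb5* had the largest difference, at 1.69, 2.77, 2.60 and 1.99 CPM on the ipsilateral and 2.78, 3.73, 3.72 and 2.78 CPM on the contralateral side. It was lower on the operated side in each of the 4 mice, by log2 values of -0.72, -0.43, -0.51 and -0.48. All ipsilateral libraries lay below all contralateral ones, as 4.17% of genes were separated in one direction or the other. The fitted log2 difference of -0.52 (SE 0.209) had an adjusted p of 0.639, and with the mouse as a block it was -0.53 (SE 0.120, adjusted p = 0.326, edgeR). With that block 4 genes were called over all genes and none of the 7. *Mrgpra3* (-0.11, SE 0.105) and *Mrgprx1* (0.09, SE 0.113), the other genes that fell after crush in both genotypes, had overlapping sides with adjusted p of 0.888 and 0.930. Sham and crush ganglia stand in separately normalized tables and differ in sex, so their changes are only given side by side.

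Cultured neurons had lower values of most of the receptors than contralateral sham ganglia of the same table: 6 of the 7 genes were called lower, where 75.5% of all 24192 genes were called, 36.4% lower and 39.1% higher. *Mrgprd* was at 31.4 to 60.8 CPM in the 6 neuron libraries and at 249, 217, 263 and 195 CPM in the 4 ganglia, a log2 difference of -2.18 (SE 0.148, adjusted p = 3.20e-08, edgeR). *Mrgprb4*, at 1.69 to 4.56 CPM against 9.95 to 17.7, differed by -2.24 (SE 0.196, adjusted p = 3.57e-07). *Mrgpra3* was at 5.77 to 8.62 CPM in neurons and 15.7 to 20.7 in ganglia (-1.26, SE 0.117, adjusted p = 6.73e-07), and *Mrgprx1* at 5.70 to 8.36 against 16.3 to 21.1 (-1.41, SE 0.125, adjusted p = 4.09e-07). *Mrgpre* differed less, with 23.1 to 28.9 CPM against 36.6 to 44.3 (-0.65, SE 0.0719, adjusted p = 3.29e-06). *Mrgprb5* was at 1.08 to 2.52 CPM against 2.78 to 3.73 (-0.73, SE 0.227, adjusted p = 0.0108), but in control mice alone this gave -0.65 and an adjusted p of 0.0886. *Mrgprf* overlapped, with 2.57 to 3.76 CPM in neurons and 3.06 to 5.01 in ganglia (-0.21, SE 0.150, adjusted p = 0.223).

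The fitted values moved with the ganglia they were set against, and each of the 7 was more negative with naive ganglia of the other, separately normalized table in place of the sham ganglia. *Mrgprb5* was then at -1.64 (adjusted p = 2.45e-08, edgeR) and *Mrgprf* at -1.01 (adjusted p = 6.23e-06). *Mrgpra3* was at -1.76 and *Mrgprx1* at -1.95, while *Mrgprd* (-2.34), *Mrgprb4* (-2.55) and *Mrgpre* (-0.77) moved less. Without control contralateral sham replicate 2, *Mrgprf* was at -0.37 (adjusted p = 0.0336). The other 6 genes stayed lower under every alternative tried, and only *Mrgprb5* in control mice alone missed the threshold.

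Other cell markers moved with this comparison, in which 36.4% of all genes were called lower and 39.1% higher. Of the 9 genes of all sensory neurons 8 were lower in the neuron cultures (median log2 -0.75, all genes 0.04), and their summed level was 3619 to 4317 CPM in cultures and 6542 to 7194 CPM in contralateral sham ganglia. *Tubb3*, a neuronal tubulin, was lower by a log2 value of -1.65 (SE 0.0459). Of 3 Schwann cell markers all were lower (638 to 778 CPM summed, 2149 to 3181 in ganglia), and of 4 satellite glia markers 3 were lower and 1 higher (909 to 1689 against 1623 to 1764). Of 6 fibroblast markers 4 were lower and 1 higher (239.5 to 446 against 489 to 853), of 6 smooth muscle markers 3 were lower and 3 higher (392 to 427 against 234 to 302), and of 5 macrophage markers 2 were lower and 2 higher (168 to 189 against 109 to 125). Of 6 mast cell markers 4 were lower and 1, *Kit*, was higher (median -2.83). The summed level of that list was higher all the same (96.2 to 150.5 against 76.3 to 85.6), and *Kit* is also on the peptidergic list. No list stood at 0 in the cultures, and the part of these cells in the receptor values was not tested. Of the *Mrgprd* nociceptor markers 8 of 10 were lower and 1, *Runx1*, was higher (median -1.11), and of the Nppb itch markers 5 of 7 were lower and 2, *Nts* and *Osmr*, higher (median -0.92). The summed level of the *Mrgprd* nociceptor markers was 1401 to 1766 CPM in cultures and 2183 to 2864 in ganglia. That of the Nppb itch markers overlapped, at 181 to 206 CPM in cultures and 164 to 207 in ganglia. Of the 15 signalling genes 14 were lower (median -0.83). Of the markers of C low-threshold mechanoreceptors 2 of 5 were lower (median -0.15), and their summed level overlapped (255 to 296 CPM in cultures, 206 to 305 in ganglia). Of the peptidergic markers 3 of 5 were lower and 2 higher (median -0.76, 827 to 1097 CPM summed against 1240 to 1374). Of the markers of large myelinated neurons 5 of 6 were lower and 1 higher (median -1.46, 1020 to 1599 CPM summed against 2856 to 3491). Culture, sex and surgery differ together between these groups and cannot be told apart.

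Across the 12 naive and injured libraries, *Mrgpra3* and *Mrgprx1* varied together in log2 CPM (Pearson r = 0.97), which includes the injury difference both share, and r was 0.68 on deviations from the group means. *Mrgprb4* and *Mrgprb5* had r = 0.61 over all 12 libraries and 0.84 within groups. *Mrgprf* had negative r within groups with each of the other 6 genes, from -0.15 with *Mrgprb5* to -0.56 with *Mrgpre*. These correlations are descriptions over libraries of 1 table that share their scaling. Among 13858 genes with a mean of at least 1 CPM, the 3 most alike in pattern were *Unc119* (r = 0.99), *Trmt9b* (0.99) and *Nrg4* (0.98) for *Mrgpra3*, and *Trmt9b* (0.99), *Eps8l3* (0.99) and *Rab4a* (0.98) for *Mrgprx1*. For *Mrgprd* they were *Grik4* (0.98), *Kcnt1* (0.97) and *Kcnd3* (0.95), and for *Mrgprb5* they were *Isl2* (0.97), *Fam83d* (0.97) and *Agtr1a* (0.97). *Mrgprb4* had lower values, among them *Parvb* (0.88) and *Cyp4f39* (0.86). For *Mrgpre* they were *Ccdc127* (0.95), *Gpr173* (0.93) and *Tmem255a* (0.93), and for *Mrgprf* they were *Glis2* (0.97) and the extracellular matrix genes *Col6a1* (0.96) and *Pcolce* (0.96). Which cells of the ganglion made *Mrgprf* was not tested.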

How the data were processed

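RNA was extracted with the RNeasy Plus Mini kit and libraries were made with TruSeq Stranded mRNA, per the labels. The submitters' processing notes name Trim Galore, HISAT2, featureCounts and mm10, without versions or roles. The authors deposited whole-number read counts per gene in 2 tables (12 naive and injured libraries, 14 sham and neuron libraries), with matching FPKM tables. The deposited FPKM equals the count divided by the gene span with introns and by the library total, since the implied length of each of the 7 genes is its GENCODE M21 span. Of single counts from 1 to 10, 38.1% to 39.2% were even in the first table and 54.5% to 58.3% in the second, so levels are compared only within a table, except in the alternative that sets the neurons against naive ganglia. Symbols from GENCODE M21 matched 54349 of 55401 gene IDs.

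The main test was edgeR 4.0.16 (R 4.3.3), quasi-likelihood, with filterByExpr (minimum count 10, minimum total 15), TMM factors, 1 mean per group and Benjamini-Hochberg adjustment over all genes of a fit (called under 0.05), tested on simulated data. The fits held 12 naive and injured, 6 neuron, 8 sham and 14 sham and neuron libraries, with 21261, 23295, 22160 and 24192 genes and with common biological variation (BCV) of 0.0986, 0.131, 0.155 and 0.145. The SE was obtained from each log2 fold change and its F statistic. Alternatives were DESeq2 1.42.0, RLE factors, no filter, limma 3.58.1 on log2(FPKM + 0.1), a threshold of 0.1, sex by transcripts as a covariate, the replicate number as a block, another comparison group for the neurons and leaving out each library. Sequences come from GENCODE M21 and RefSeq promoters (Biopython 1.88). The sides of a sham mouse come from 1 animal, per the labels. Deviations from group means of same-numbered libraries correlated at -0.520 to 0.487 in the naive and injured ganglia, so the numbers there show no pairing. In the neurons they correlated at 0.0802 to 0.342, above the -0.267 to 0.0259 of the other pairs. The main fit of the neurons has no term for the replicate number, and the alternative with it as a block does.

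The genes and lists were chosen with earlier results of these data known. Named besides the 7 genes are *Ahr* and *Thy1*, family members with a mean of at least 0.1 CPM in any group, per list at most the 3 called genes with the smallest p in each direction, and the 3 genes most alike in pattern to each member. Some genes that this rule names are not reported here.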

Additional observations from a re-analysis of the deposited data

How the results depend on the processing

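The counts of receptor genes called stayed within 1.5 times the reported ones in all 11 comparisons under the alternatives tried, except after crush in cKO, where sex by transcripts as a covariate gave 2 in place of 4. Calls over all genes in that fit were 1414 in place of 3962. Small uncalled genotype differences changed sign. With limma on log2(FPKM + 0.1) *Mrgprx1* in naive mice was -0.038, *Mrgprd* in injured mice -0.0069, and *Mrgprb4* and *Mrgprb5* in contralateral sham ganglia -0.00076 and -0.018. With sex as a covariate *Mrgprd*, *Mrgpra3* and *Mrgprx1* in injured mice were -0.013, 0.096 and 0.040, and the interactions of *Mrgpra3* and *Mrgprx1* were 0.14 and 0.038. With the replicate number as a block, 3 receptor genes in place of 4 were called after crush averaged over genotypes (*Mrgprd*, -0.17, adjusted p = 0.0553, edgeR), the neurons gave 5 calls over all genes and the sham sides 4 with the mouse as a block, and no other receptor call changed. The sides of the cKO sham mice deviated in opposite directions, and crossing their numbers in the block gave 9 calls over all genes and 0 of the 7. Leaving out 1 library at a time (1 mouse for the sham sides) also changed the sign of uncalled values, given as ranges. For genotype in naive ganglia they were *Mrgpra3* -0.096 to 0.012 and *Mrgprx1* -0.051 to 0.059. For genotype in injured ganglia they were *Mrgprb5* -0.32 to 0.014, *Mrgprd* -0.074 to 0.072 and *Mrgprx1* -0.078 to 0.045. The interaction gave *Mrgpra3* -0.16 to 0.041, *Mrgprf* -0.046 to 0.42 and *Mrgprx1* -0.094 to 0.039. For genotype in neurons they were *Mrgprb5* -0.46 to 0.10 and *Mrgprf* -0.084 to 0.15. For genotype in ipsilateral sham ganglia they were *Mrgpra3* -0.15 to 0.032, *Mrgprb5* -0.26 to 0.45, *Mrgprd* -0.24 to 0.015 and *Mrgprx1* -0.35 to 0.032. For genotype in contralateral sham ganglia they were *Mrgpra3* -0.26 to 0.16, *Mrgprb4* -0.39 to 0.43, *Mrgprb5* -0.21 to 0.23, *Mrgprd* -0.24 to 0.19, *Mrgpre* -0.21 to 0.0021 and *Mrgprf* -0.48 to 0.24. The sham sides gave *Mrgpra3* -0.23 to 0.0071, *Mrgprd* -0.14 to 0.031 and *Mrgpre* -0.064 to 0.068. Crush in controls gave *Mrgprb4* -0.058 to 0.18. Crush in cKO gave *Mrgprf* -0.21 to 0.26. Crush averaged over genotypes gave *Mrgprf* -0.19 to 0.048. The counts of receptor genes called then ran from 3 to 5 after crush in cKO and averaged over genotypes and from 6 to 7 in neurons against contralateral sham ganglia, and were 3 after crush in controls. The falls of *Mrgpra3*, *Mrgprx1* and *Mrgprb5* after crush remained called without any 1 library. Depth limits *Mrgprb5* and *Mrgprf* most, with 58 and 90 counts in their lowest libraries.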

Other observations

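Of the 27 other genes of the family counted here (*Mas1* and all genes named Mrgpr), 26 had at least 1 count in some library and *Mrgprb3* had 0 counts in all 26. In CPM, which takes no account of gene length, *Mrgpra2b* was by far the highest, at up to 182 CPM in a group mean, followed by the pseudogene *Mrgprx3-ps* at 55.9 CPM. *Mrgpra2b* spans 65057 bases, 48.8 times its exon length, and *Mrgprx3-ps* is a single exon of 918 bases. The order therefore holds for CPM and not for the scale per span. No other reached 4 CPM: *Mrgpra2a* had 3.49, *Mas1*, the receptor that gave the family its name, 3.12, *Mrgprc1-ps* 2.39, *Mrgpra9* 1.43 and *Mrgpra1* 1.14 CPM in their highest groups. *Mrgpra2a* and *Mrgpra2b* share 87.5% and 81.2% of their 50-base words, so their counts are uncertain, and *Gm45085*, which overlaps *Mrgpra1*, had 12.7% as many counts as that gene. The pseudogene *Gm7255* overlaps *Mrgpra2b* on the same strand over 26407 bases and had 2.72% as many counts. *Mrgprb2*, the receptor of mast cells in skin, had 51 counts over all libraries and a highest group mean of 0.236 CPM.

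After crush, 10 of the 27 could be tested and 3 fell averaged over genotypes, where 15.7% of all genes were called lower and 18.4% higher: *Mrgpra2b* (log2 -0.50, SE 0.0723, adjusted p = 0.000207, edgeR), *Mrgpra2a* (-0.65, SE 0.102, adjusted p = 0.000406) and *Mrgprc1-ps* (-0.55, SE 0.155, adjusted p = 0.0161). *Mas1* rose (0.30, SE 0.104, adjusted p = 0.0453). *Mrgprx3-ps*, *Mrgpra9*, *Mrgprb1*, *Mrgprb12-ps*, *Mrgpra1* and *Mrgprh* were not called, with values from -0.42 for *Mrgprb1* to 0.35 for *Mrgpra9*. The median of the 10 was -0.23. In cultured neurons against contralateral sham ganglia 7 of 11 tested were lower and none higher (36.4% of all genes lower and 39.1% higher), with a median of -1.83, and *Mrgpra9* had the most negative value (-3.77, SE 0.335, adjusted p = 4.16e-07).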
